A study of Danio rerio with 4 samples.

Results

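The contacts described here join the lower-coordinate flank of the major globin gene domain in zebrafish (Danio rerio), which holds alpha- and beta-globin genes, with a block inside it. They were measured by 5C in blood of adult fish and of larvae. A primer pair was taken where the midpoint of 1 primer lay below 55943000 on chromosome 3 (danRer7) and that of the other lay from 55946101 to 55962000. This rule uses position only and gave 825 of the 6699 primer pairs. They combine 61 flank primers, placed between 55888613 and 55942960, with 27 block primers, placed between 55946389 and 55961946. The distance between the primers of a pair ran from 3.46 to 73.3 kb, with a median of 40.5 kb.

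In 5C, crosslinked chromatin is digested and religated, and pools of forward and reverse primers read out which fragment ends were joined. Each read counts for 1 forward (F) and 1 reverse (R) primer, so each flank primer was measured only against block primers of the opposite kind. Globin genes are switched during development in vertebrates: embryonic and larval genes give way to adult genes. In fish the circulating red cells keep their nuclei, so blood carries erythroid chromatin. In zebrafish, as in other vertebrates, the major regulatory element of this globin domain lies within an intron of nprl3, a gene of the GATOR1 complex that flanks the domain. A RefSeq gene table of another zebrafish assembly (GRCz12tu) lists mpg, a DNA repair glycosylase, and nprl3 at one side. The adult globin genes hbaa2, hbba2, hbaa1 and hbba1 and then the embryonic genes hbbe1.1, hbae1.1 and hbae3 follow, with kank2 and dock6 at the other side. No danRer7 annotation was used here, so no gene or regulatory element is placed on a primer and primers are given by position.

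The data comprised 2 libraries from blood of adult fish and 2 from blood of larvae at 18 days post fertilisation, all from fish euthanised with tricaine and fixed with 2% formaldehyde. No strain, genotype or adult age is given in the sources used here. Neither are the restriction enzyme, the rule that assigned a read to a pair, or whether separate 3C templates were used for libraries of like stage. P-values therefore measure the spread between these libraries, which may be technical. The label of blood could not be set against marker genes, since no expression was measured.

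The adult libraries held total counts of 65450 (replicate 1) and 38494 (replicate 2), and those of larvae 20801 (replicate 1) and 6539 (replicate 2). Values for 4 libraries are given in that order throughout. Depth thus differed with stage, and the effect of drawing all libraries down to 6539 counts is given beside the calls. These calls at equal depth come from 1 random draw. It was not repeated, so calls near the threshold there may depend on the draw. In bulk blood, a contact present in fewer cells and fewer cells of the type that carries it cannot be told apart. A set of 3 pairs outside the flank dominated all libraries, with 15.2%, 18.5%, 24.8% and 34.5% of the counts, a share that was also larger in larvae.

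Flank to block pairs took a larger share of the reads in adult than in larvae libraries. They held 8005, 4402, 1838 and 336 counts, which is 12.2% (95% exact binomial interval 12.0 to 12.5), 11.4% (11.1 to 11.8), 8.84% (8.45 to 9.23) and 5.14% (4.62 to 5.70) of each library. Both adult libraries lay above both larvae libraries, the adult mean being 11.8% ± 0.562 (SD, n = 2) and the larvae mean 6.99% ± 2.61 (SD, n = 2). No test was made of this single value, because 2 libraries against 2 cannot go below p = 0.333 in an exact permutation test. With the 3 dominant pairs left out of the totals the shares were 14.4%, 14.0%, 11.8% and 7.84%, in the same order. Of the counts that join a low flank primer to any primer outside the flank, the block took 47.6%, 47.2%, 41.7% and 31.1%.

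**Figure D1:**
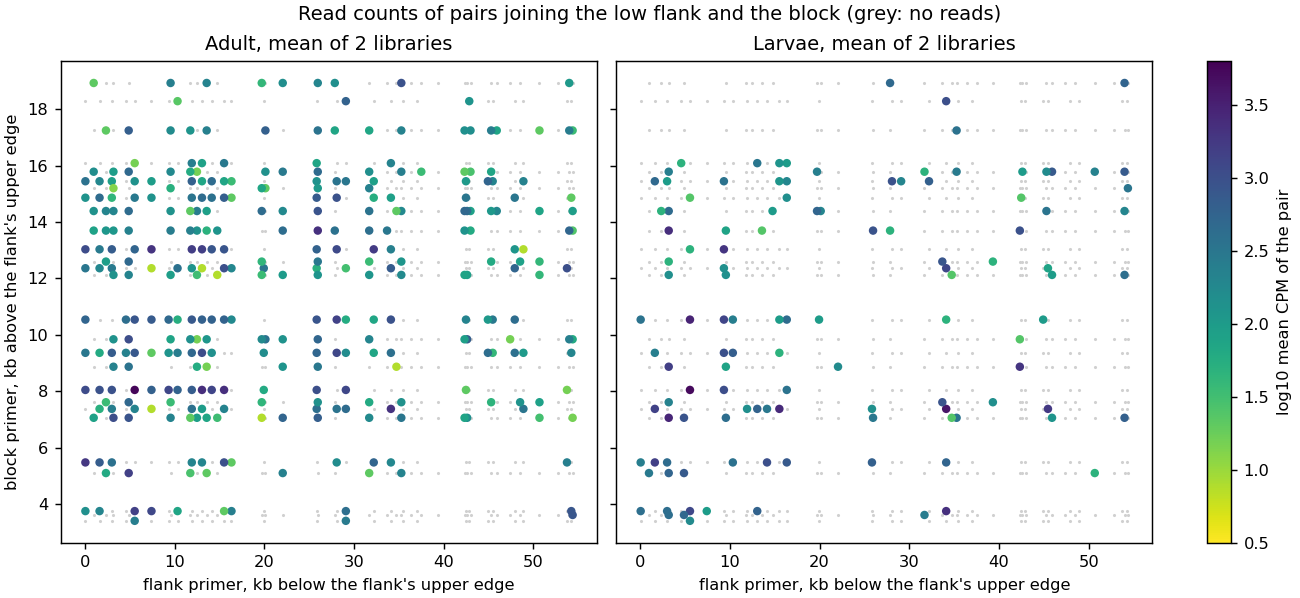
Mean CPM (counts scaled to a common library total; colour, log10 scale) of each flank to block pair in the adult (left) and the larvae libraries (right), each the mean of 2 libraries. The horizontal axis gives the flank primer in kb below the upper edge of the flank at 55943000, the vertical axis the block primer in kb above it, and grey marks pairs with no reads; the adult map is filled by more pairs.

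Contacts fall with distance, so the pairs were set beside all other pairs in the same 10 kb distance class, the dominant pairs left out. Flank to block pairs were 1.84 and 1.82 times as frequent as other pairs in the adult libraries, and 1.38 and 0.877 times in the larvae libraries. On the log2 scale the adult mean was 0.87 ± 0.013 and the larvae mean 0.14 ± 0.46 (SD over 2 libraries), and the stages did not overlap. Relative to other pairs, adults lay above larvae without overlap in the classes from 20 to 50 kb and from 60 to 70 kb. In CPM, counts scaled to a common library total, the mean level per flank to block pair at 20 to 30 kb was 212, 197, 80.0 and 39.6 CPM, against 65.7, 57.4, 76.5 and 66.1 CPM for other pairs. At 30 to 40 kb it was 182, 176, 77.6 and 53.4 CPM, against 73.3, 75.2, 79.9 and 90.0 CPM. The adult levels were above those of other pairs in both classes, and those of larvae were close to them or below. At 10 to 20 kb the flank to block pairs stood at 242, 225, 250 and 140 CPM and the other pairs at 131, 124, 96.3 and 83.3 CPM, so that flank to block pairs were the more frequent in each of the 4 libraries.

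**Figure D2:**
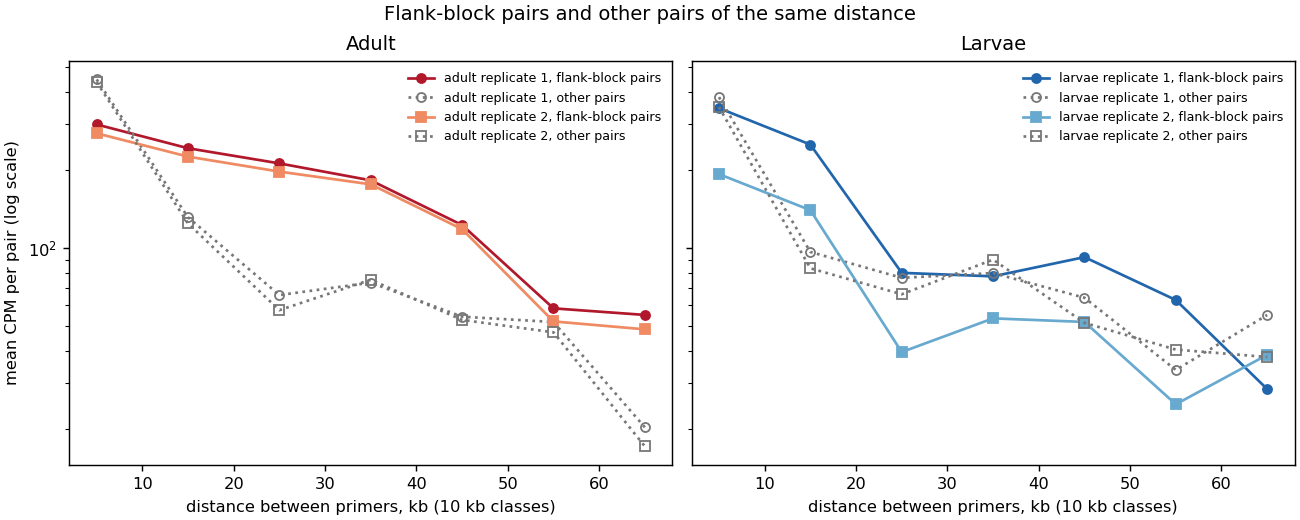
Mean CPM per pair (log axis) against the distance between primers in 10 kb classes, for flank to block pairs (coloured, solid) and other pairs (grey, dotted), 1 line per library, adult left and larvae right. From 10 to 50 kb the adult lines of flank to block pairs lie above those of other pairs, and from 20 to 40 kb those of larvae lie close to the other pairs or below; the class from 70 to 80 kb, with 10 flank to block pairs, is not drawn.

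The reads of adult libraries were also spread over more of the pairs. Reads were found for 330, 312, 114 and 84 of the 825 pairs. At a depth of 6539 counts in each library the expected numbers were 218, 213, 90.4 and 84.0, so the excess in adults was kept at equal depth. For all 6699 pairs the expected numbers at that depth were 1299, 1275, 842 and 877.

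The adult libraries had 310 pairs in common, 93.9% of those with reads in adult replicate 1 and 99.4% of those in adult replicate 2. The larvae libraries shared 81, or 71.1% and 96.4% of their own. Adult replicate 1 and larvae replicate 1 shared 69, which is 20.9% of the adult and 60.5% of the larvae pairs with reads. Among the other pairs of the domain the adult libraries shared 92.7% and 98.0% of their own, and the larvae libraries 78.5% and 92.4%. There, adult replicate 1 and larvae replicate 1 shared 32.2% of the adult and 57.7% of the larvae pairs. Low counts recurred as well: of 88 pairs with 1 to 3 reads in adult replicate 2, 86 had reads in adult replicate 1, and of 53 such pairs in larvae replicate 2, 50 had reads in larvae replicate 1. Among the other pairs with such counts, 93.5% recurred in adults and 88.5% in larvae.

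Reads in both adult libraries and in no larvae library were found for 240 pairs, 29.1% of the flank to block pairs, against 17.1% of the other pairs. These 240 pairs held 70.2% and 71.0% of the adult flank to block counts, with medians of 13 and 7 counts per pair. The converse pattern, reads in both larvae libraries and no adult library, was found for 31 pairs or 3.76%, against 4.70% of the other pairs. Both larvae libraries are shallower than either adult library. A pair without larvae reads was thus not detected at that depth and is not shown to be absent. For the pairs most frequent in adults, bounds on the stage difference are given below. Reads in all 4 libraries were found for 50 pairs, and 446 had none in any library.

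The size of the stage difference varied along the flank, but its change from window to window was not tested. In windows of 10 kb counted down from the upper edge of the flank, the levels of adults and larvae were closest in the window from 30 to 40 kb and furthest apart from 20 to 30 kb. In the window from 20 to 30 kb, which runs from primer position 55913894 to 55922890 with 7 primers and 95 pairs, the mean level per pair was 263, 235, 42.5 and 41.9 CPM. The adult mean was 249 ± 19.3 CPM and the larvae mean 42.2 ± 0.462 CPM (SD, n = 2 for both), a ratio of 5.91. From 10 to 20 kb the levels were 179, 171, 86.3 and 39.9 CPM, a ratio of 2.77. In both windows the adult libraries lay above the larvae libraries without overlap.

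When summed over the whole block, the other 4 windows did not separate the stages. Nearest the block, from 0 to 10 kb, the mean level per pair was 264, 245, 262 and 148 CPM, with 254 ± 13.2 CPM in adults and 205 ± 80.8 CPM in larvae. From 30 to 40 kb the level was 77.9, 83.3, 114 and 60.2 CPM, a ratio of 0.927. In both of these windows the larvae libraries overlapped the adult ones. From 40 to 50 kb it was 47.1, 50.9, 51.9 and 21.7 CPM, and from 50 to 60 kb 74.7, 43.4, 24.0 and 52.2 CPM, again with overlapping stages.

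As a share of all flank to block counts, the window from 20 to 30 kb took 20.4% and 19.6% in adults and 4.57% and 7.74% in larvae. The window nearest the block took 34.7%, 34.5%, 47.8% and 46.4%, and that from 30 to 40 kb 9.56%, 10.9%, 19.3% and 17.6%. Each of these 3 shares separated the stages, the first with adults above and the others with larvae above. Of all counts of its own primers, within the domain as a whole, the window from 20 to 30 kb gave 40.7%, 40.6%, 12.0% and 15.9% to the block. Pairs with reads in both adult libraries and in no larvae library were 44 of 95 (46.3%) there, 55 of 161 (34.2%) nearest the block and 27 of 150 (18.0%) from 30 to 40 kb.

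**Figure D3:**
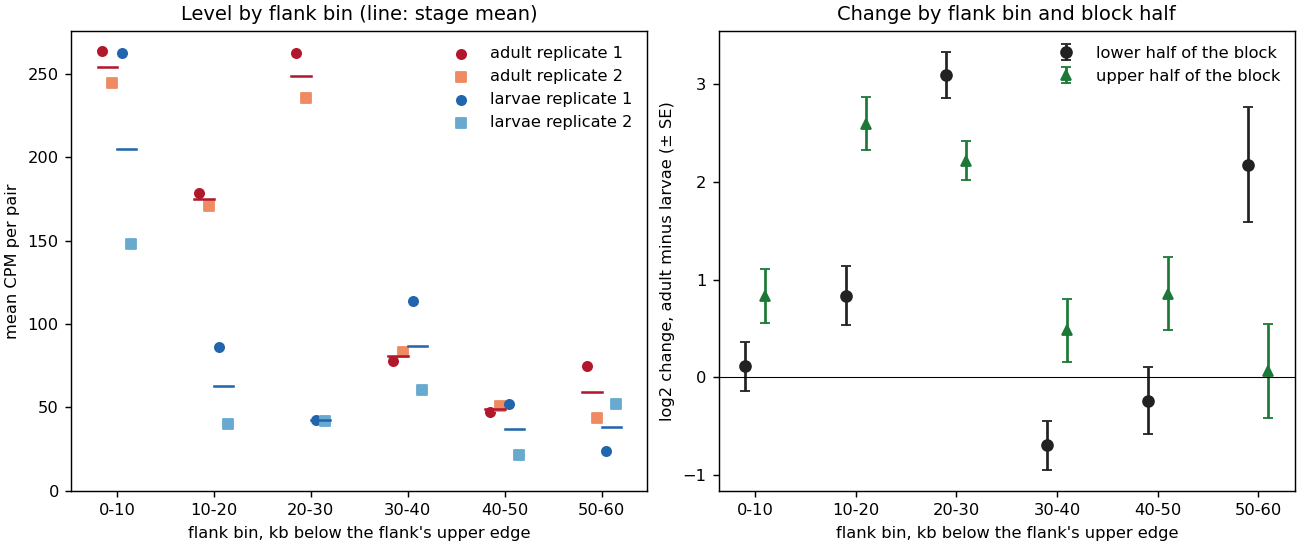
Left, mean CPM per pair in each 10 kb window of the flank, with 1 point per library and a line at the mean of each stage; right, log2 change (adult minus larvae, ± SE of the edgeR fit) of the same windows for the lower and the upper part of the block. The window from 20 to 30 kb has both adult points near 249 CPM and both larvae points near 42.2 CPM, and its changes for the lower and upper parts of the block are 3.09 and 2.22.

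To test the stage difference in each window, counts were summed over flank windows and over parts of the block. These were a lower part (13 primers, 55946389 to 55953554) and an upper part (14 primers, 55955110 to 55961946). All 128 tested pairings of windows across the domain were fitted with the edgeR quasi-likelihood test. Of the 12 pairings of flank and block, 4 were higher in adults and 0 in larvae at a Benjamini-Hochberg adjusted p below 0.05. Over all 128 pairings 24.2% were higher in adults and 19.5% in larvae. The adult calls, 33.3% of the 12, were thus not far above the share of all pairings. Without adjustment, 6 of the 12 were higher in adults and 1 in larvae at edgeR p below 0.05. DESeq2 called 6 and 0 after adjustment. The shares over all pairings by these criteria are not given, so these counts have no background. At equal depth edgeR called 5 and 0. The share called over the 95 pairings tested across the domain at that depth is not given. The median log2 change of the 12 was 0.83, against 0.09 over all 128.

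The window from 20 to 30 kb differed toward both parts of the block. It held 782, 431, 33 and 6 counts with the lower part, a log2 change of 3.09 ± 0.23 (SE; edgeR adjusted p = 0.000852). With the upper part it held 852, 430, 51 and 20 counts, a change of 2.22 ± 0.20 (edgeR adjusted p = 0.00124). The ratios of mean CPM were 9.24 and 4.39, and in both the adult CPM lay above that of larvae.

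The window from 10 to 20 kb differed toward the upper part, with 859, 477, 54 and 8 counts and a change of 2.60 ± 0.27 (edgeR adjusted p = 0.00142). Toward the lower part its change was 0.84 ± 0.30, which missed the threshold (edgeR adjusted p = 0.0682). The window nearest the block, from 0 to 10 kb, held 861, 443, 183 and 29 counts with the upper part, a change of 0.83 ± 0.28 (edgeR adjusted p = 0.0556). In CPM the adult libraries lay above the larvae libraries in both. Both passed the threshold with DESeq2 (adjusted p = 0.0278 and 0.0313), at equal depth, without the filter, without the dominant pairs and with a replicate block (adjusted p = 0.00176 and 0.00343). The last of the 4 called pairings joined the window from 50 to 60 kb with the lower part, with 220, 68, 9 and 6 counts and a change of 2.17 ± 0.59 (edgeR adjusted p = 0.0323). The pairs F175-R52 and F54-R176, of 38 in this pairing, each held 77 and 19 of the adult counts, a large part of them. The only negative change near the threshold was that of the window from 30 to 40 kb toward the lower part, -0.70 ± 0.25 (edgeR adjusted p = 0.0672).

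These 4 calls depended on having both adult libraries. Without adult replicate 1 none of the 12 pairings passed, and the 4 had edgeR adjusted p-values from 0.141 to 0.300. Without adult replicate 2 none passed either, with adjusted p-values from 0.0544 to 0.167 for the 4. At an unadjusted p below 0.05, 3 and 4 pairings were higher in adults in these fits, which were not repeated with DESeq2. The pairing of the window from 50 to 60 kb also lost its call without larvae replicate 1 (edgeR adjusted p = 0.0559) and at equal depth (0.0552).

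The same flank windows also contact the next 30 kb beyond the block, which served as a comparison chosen after the values were seen. Flank primers with that stretch took 6.72%, 6.48%, 5.33% and 5.41% of the library. In an edgeR interaction test over 11 windows, 2 windows (18.2%) changed differently toward the block and toward the next 30 kb. For the flank window from 20 to 30 kb, counts with the block were 1634, 861, 84 and 26, and those with the next 30 kb were 232, 146, 38 and 13. The adult excess was larger toward the block by 1.60 ± 0.44 on the log2 scale (edgeR adjusted p = 0.0387). The other window was the stretch between flank and block, which holds primers of the dominant pairs.

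This difference missed the threshold without adult replicate 1 (edgeR adjusted p = 0.351), adult replicate 2 (0.243) or larvae replicate 1 (0.141), with values from 1.48 to 1.73. For the other flank windows the difference ran from -0.81 to 0.91 with edgeR adjusted p-values from 0.234 to 0.483. With 1 library left out some of them passed: the windows from 0 to 10 and from 10 to 20 kb without larvae replicate 1 (1.38 and 1.58, both adjusted p = 0.0455), and those from 50 to 60 and from 30 to 40 kb without larvae replicate 2 (1.71 and -1.22, adjusted p = 0.0376 and 0.0420). Which windows passed thus depended on the libraries used.

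Seen by single flank primers, most tested primers had more block contacts in adults, with some exceptions scattered along the flank. Counts were summed over all block partners of each flank primer and fitted with the sums of every primer toward each of 5 regions of the domain. Of the 61 flank primers, 48 passed the filter on low counts, 31 were higher in adults and 8 in larvae (edgeR, adjusted p below 0.05), and 9 were not called. These are 64.6% and 16.7% of those tested. Over all 597 sums 33.3% were higher in adults and 22.9% in larvae. The median log2 change was 1.90 among the 48 and 0.24 among the 597. Of the 31, 6 had no larvae read and passed the filter only through adults, so their calls carry no support of their own. Others with few larvae reads, among them F135, F144 and F109, also passed only through adults, and the same holds for their calls. How many of the 31 did so is not given. Among the 42 tested primers with reads in both stages, 25 were higher in adults and 8 in larvae, with a median log2 change of 1.68. The share called over all sums with reads in both stages is not given. The 597 sums include sums without larvae reads, so their shares are no matched background for these 42 primers. Whether 25 of 42 exceeds the share elsewhere in the domain was thus not tested. No reads with the block in any library were found for 4 flank primers. At equal depth 20 flank primers could be tested, of which edgeR called 9 for adults and 2 for larvae. The share called over all 293 sums tested at that depth is not given, so these counts have no background.

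By window, counted away from the block, the primers higher in adults were 6 of 12, 8 of 11, 6 of 7, 3 of 5, 5 of 9 and 3 of 4 tested. Those higher in larvae were 2, 1, 0, 2, 3 and 0. The adult tallies include the primers without larvae reads, whose calls carry no support of their own. These were R134 and R136 from 10 to 20 kb, F70 and F72 from 40 to 50 kb, and F54 and F56 from 50 to 60 kb. Primers with few larvae reads that passed only through adults, such as F135, F144 and F109, are counted too. In the window from 20 to 30 kb the 1 tested primer that was not called was R113, with 57, 12, 3 and 6 counts.

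The primer with the smallest adjusted p was F135 (55931070 to 55931099), with 353, 213, 3 and 1 counts and a log2 change of 5.20 ± 0.57 (edgeR adjusted p = 3.93e-17). Its mean CPM with the block was 36.8 times higher in adults. The block took 26.6% and 28.4% of all its counts in adults and 1.80% and 1.75% in larvae. Of its 13 possible block partners 10 had adult reads and 1 had larvae reads. With 3 and 1 larvae counts few partners could be reached, so the partner numbers add nothing to the counts.

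F144 (55935564 to 55935593) had 344, 168, 4 and 0 counts, a change of 5.05 ± 0.60 (edgeR adjusted p = 3.58e-15). F163 (55942931 to 55942960), the flank primer nearest the block, had 385, 223, 10 and 10 counts and a change of 2.88 ± 0.41 (edgeR adjusted p = 1.10e-10). Adult and larvae levels did not overlap for either primer.

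The other primers with the smallest adjusted p-values among those higher in adults lay in the window from 20 to 30 kb. R116 (55917025 to 55917054) held 439, 223, 9 and 13 counts, a change of 2.79 ± 0.40 (edgeR adjusted p = 1.47e-10). F109 (55913894 to 55913923) held 261, 118, 5 and 1 counts, a change of 4.02 ± 0.62 (edgeR adjusted p = 2.34e-09). F112 (55914915 to 55914944) held 349, 224, 32 and 2 counts, a change of 2.30 ± 0.38 (edgeR adjusted p = 2.25e-08). With 1 library left out, the log2 change of these 6 primers stayed positive, from 1.69 (R116) to 10.5 (F144). F135, F144 and F109 passed the filter only through adults, and all 6 were picked for a small adjusted p. This range is therefore no support for their calls.

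At the far end of the flank some primers had adult reads and no larvae read with the block. F56 had 110 and 34 adult counts, F54 had 92 and 27, F72 had 122 and 67, and F70 had 42 and 27. A single pair gave much of some sums: F56-R194 held 78.2% and 82.4% of the adult counts of F56, and F54-R176 83.7% and 70.4% of those of F54. The leading pair held 59.5% and 40.7% for F70 and 32.0% and 40.3% for F72. Against a floor of 3 counts over the summed larvae libraries F56 was at least 11.8-fold higher in adults, F54 at least 9.65-fold, F72 at least 16.6-fold and F70 at least 6.20-fold. R134 and R136, from 10 to 20 kb, were at least 5.64-fold and 5.83-fold higher.

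A minority of flank primers went the other way. R155 (55939804 to 55939833) held 109, 87, 238 and 39 counts, a log2 change of -2.19 ± 0.31 (edgeR adjusted p = 1.01e-10), and was 4.43 times higher in larvae by mean CPM. The block took 16.3% and 20.9% of its own counts in adults and 51.5% and 44.3% in larvae. R155 lies 0.181 kb from F156, which had 224, 127, 24 and 5 counts with the block and was higher in adults, with a change of 1.73 ± 0.46 (edgeR adjusted p = 0.000579). R158, 0.836 kb from R155 and reading out the same block primers, was also higher in adults, with 38, 18, 2 and 0 counts (2.83 ± 0.95, edgeR adjusted p = 0.00666). Neighbouring primers thus differed in direction.

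F141 (55933653 to 55933682) held 136, 64, 151 and 28 counts, a change of -1.66 ± 0.33 (edgeR adjusted p = 3.62e-06), and was also higher in larvae. It lies 1.91 kb from F144, which was higher in adults and reads out the same block primers. R103 (55909302 to 55909331) held 14, 16, 42 and 9 counts (-2.52 ± 0.61, edgeR adjusted p = 0.000149). F100 (55908874 to 55908903), in the same window from 30 to 40 kb, held 285, 205, 248 and 42 counts (-0.95 ± 0.29, edgeR adjusted p = 0.00294). Further out, R87 (55900662 to 55900691) held 79, 33, 93 and 9 counts (-1.59 ± 0.46, edgeR adjusted p = 0.00166), and F76 (55897526 to 55897555) held 35, 21, 51 and 8 counts (-1.85 ± 0.56, edgeR adjusted p = 0.00255).

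The calls of primers higher in larvae depended on the libraries used. Of these 6, only R155 kept its call without any 1 library. Without adult replicate 1, 4 were lost (edgeR adjusted p from 0.129 to 0.354), and without adult replicate 2, 5 were lost (0.0551 to 0.244). Without larvae replicate 1, 3 were lost (0.236 to 0.676), and without larvae replicate 2 none. F100 also lost its call with DESeq2 (adjusted p = 0.0674), at equal depth (0.0666) and with a replicate block (0.0502).

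The flank primer with the most block counts in adults did not pass the test of a stage difference. F152 held 693, 383, 270 and 41 counts, a change of 0.06 ± 0.29 (edgeR adjusted p = 0.883), and the stages overlapped. The 3 leading flank primers took 20.3% and 20.9% of the flank to block counts in adults and 41.1% and 36.3% in larvae. In both larvae libraries these were F152, F100 and R155, so larvae reads were concentrated in fewer flank positions.

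**Figure D4:**
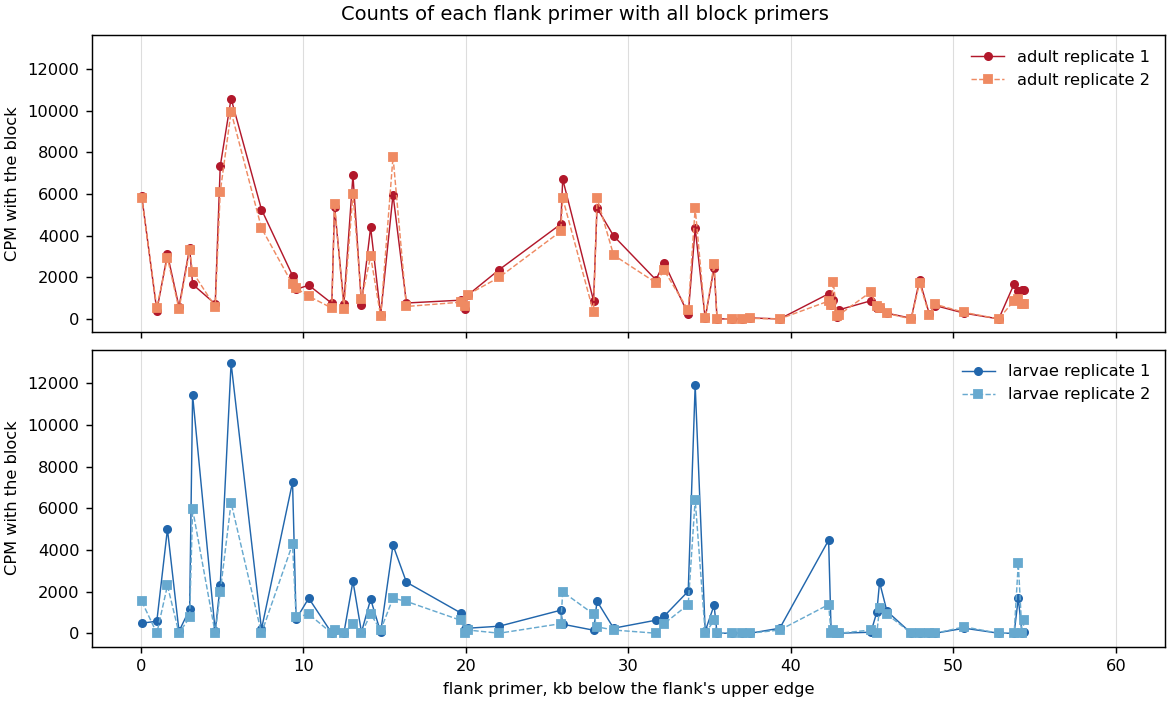
CPM of each flank primer summed over its block partners, against its distance in kb below the upper edge of the flank, adults above and larvae below on the same scale, with 1 line per library. The 2 adult lines have many peaks along the first 30 kb, while the larvae lines are low there except at a few primers, among them F152 and R155, and F100 has a further larvae peak in the window from 30 to 40 kb.

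From the side of the block, the difference was less general. Of the 27 block primers, all tested, 10 were higher in adults (37.0%) and 2 in larvae (7.41%) when summed over all flank partners, beside 33.3% and 22.9% of all sums, and 15 were not called. The median log2 change was 0.44. The share of adult calls was thus near that of all sums tested. At equal depth 19 block primers could be tested, of which edgeR called 8 for adults and 1 for larvae, again without a share over all 293 sums.

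R202 (55957848 to 55957877) held 371, 191, 5 and 1 counts with the flank, a log2 change of 4.61 ± 0.53 (edgeR adjusted p = 1.90e-15). F190 (55952827 to 55952856) held 266, 153, 1 and 0 counts, a change of 6.67 ± 0.81 (edgeR adjusted p = 2.33e-14). Reads reached F190 from 16 of its 32 flank partners in adults and from 1 in larvae, where it had only 1 read. Both primers were high in both adult libraries and near 0 in both larvae libraries.

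R198 (55956018 to 55956047) held 930, 470, 60 and 7 counts, a change of 2.58 ± 0.33 (edgeR adjusted p = 3.82e-13). In larvae, 58 of the 60 and all 7 counts came from the 1 pair with F141, whereas 15 of its 29 flank partners had adult reads. R189 (55952347 to 55952376) held 543, 293, 58 and 7 counts, a change of 1.89 ± 0.33 (edgeR adjusted p = 1.84e-07). F208 (55960233 to 55960262) held 207, 149, 12 and 1 counts, a change of 2.97 ± 0.54 (edgeR adjusted p = 3.69e-07).

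R186 (55951031 to 55951060) had the most flank counts of any block primer in adults, with 1328, 766, 157 and 37 counts and a change of 1.59 ± 0.30 (edgeR adjusted p = 1.12e-06). It took 16.6%, 17.4%, 8.54% and 11.0% of the flank to block counts. In larvae 94.9% and 56.8% of its counts came from F152 alone, with reads from 3 flank partners against 16 in adults. With 1 library left out, the log2 change of these 6 block primers stayed positive, from 1.45 (R186) to 10.2 (F190). R202 and F190 passed the filter only through adults, and all 6 were picked for a small adjusted p. This range is therefore no support for their calls.

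Next to it, 0.672 kb away, R182 (55950359 to 55950388) was higher in larvae, with 280, 207, 309 and 47 counts and a change of -1.22 ± 0.29 (edgeR adjusted p = 0.000109). It took 3.50%, 4.70%, 16.8% and 14.0% of the flank to block counts, the largest share of any block primer in both larvae libraries. Of the counts of R182 and R186 together with the 29 forward primers of the flank, R182 held 17.4%, 21.3%, 66.3% and 56.0%. With the 48 other forward primers of the domain it held 22.5%, 24.3%, 66.1% and 45.6%. The shift between these neighbours was thus also present with primers outside the flank.

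The other block primer higher in larvae was F188 (55951854 to 55951883), with 84, 34, 106 and 15 counts and a change of -1.82 ± 0.43 (edgeR adjusted p = 8.72e-05). Neither call was stable to the libraries used. Without adult replicate 1, R182 was lost (edgeR adjusted p = 0.198), and without adult replicate 2 or larvae replicate 1 both were lost (0.0822 to 0.131 over these fits). At equal depth R182 was lost as well (0.0580). The lower part of the block took 56.5%, 56.9%, 71.4% and 68.5% of the flank to block counts, with both larvae libraries above both adult libraries.

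**Figure D5:**
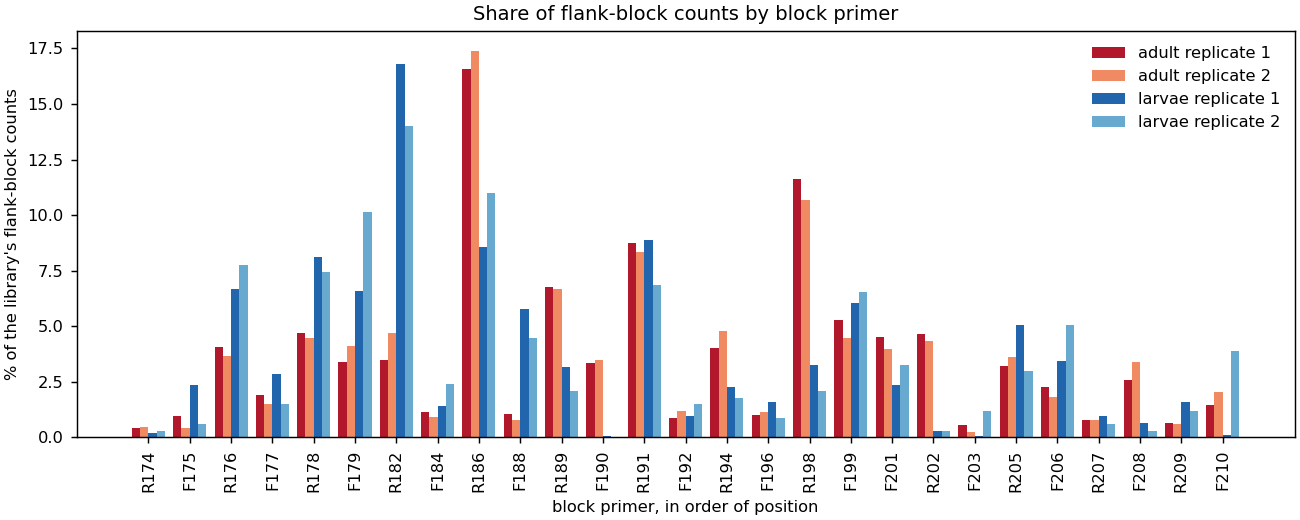
Share of each library's flank to block counts held by each block primer, in order of position, with 4 bars per primer for the 4 libraries. R186 and R198 are tallest in both adult libraries (16.6% and 11.6% in adult replicate 1), and R182 is tallest in both larvae libraries (16.8% and 14.0%).

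At the level of single pairs, 104 of the 825 had enough reads to be tested among 679 pairs of the whole domain. Of these, 67 were higher in adults (64.4%) and 21 in larvae (20.2%) by edgeR at an adjusted p below 0.05, against 46.1% and 24.0% of all pairs tested (70.1% in either direction), and 16 were not called. No larvae read was present for 62 of the 67, and no adult read for 11 of the 21. A pair with reads in 1 stage alone passes the filter only through that stage: all 320 such pairs tested across the domain were called, so their calls carry no support of their own. They are described by counts and bounds. Adult and larvae reads were both present for 31 of the tested pairs, of which 5 (16.1%) were called for adults and 10 (32.3%) for larvae, against 20.1% and 23.4% of all 359 such pairs. The median log2 change of these 31 was -0.73, opposite in sign to that of the 104, and that of the 359 was -0.10. At equal depth 9 flank to block pairs could be tested, of which edgeR called 4 for adults and 3 for larvae. The share called over all 120 pairs tested at that depth is not given. For the 104 pairs the median log2 change was 7.16 as fitted and 2.48 with pairs at 0 in a stage placed at their bound. Over all 679 pairs the fitted median was 1.08.

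Pairs that were frequent in adults and without larvae reads used R186 and R198 with several flank primers. F133-R186 held 168 and 81 adult counts and was at least 23.9-fold higher in adults. F129-R186 held 122 and 101 counts and was at least 22.9-fold higher. F144-R198 held 141 and 70 counts and was at least 20.3-fold higher.

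F104-R198, F135-R198 and F133-R198 followed, with 107 and 67, 105 and 61, and 115 and 51 adult counts. Their bounds were at least 17.3-fold, at least 16.3-fold and at least 15.8-fold, with adults higher. F112-R191 and F131-R186 held 88 and 56, and 97 and 45 adult counts, at least 14.3-fold and 13.6-fold higher. Each of these 8 pairs was at 0 in both larvae libraries.

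Tested pairs found in larvae and at 0 in adults numbered 11, and R198 was among their block primers too. F100-R176, 37.9 kb apart, held 54 and 12 larvae counts and was at least 67.4-fold higher in larvae. F141-R198 held 58 and 7 larvae counts and was at least 59.4-fold higher, although R198 had 930 and 470 flank counts in adults. F188-R87, 51.2 kb apart, held the same 58 and 7 counts. Neither pair had a read in adults.

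F117-R178, F206-R75 and F206-R55 held 17 and 3, 16 and 5, and 21 and 3 larvae counts. Larvae exceeded adults by at least 19.5-fold, at least 23.2-fold and at least 22.5-fold. F184-R103 and F196-R103 held 17 and 6, and 25 and 3 larvae counts, at least 26.1-fold and at least 25.6-fold higher. The count profiles of F184 and F196 over their partners agreed within counting noise in adult replicate 1 (chi-square per degree of freedom 0.806), the only 1 of 900 primer pairs of like kind below 2. The position of reads from these primers is therefore uncertain.

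Of the 50 pairs with reads in all 4 libraries 28 were tested, and 2 (7.14%) were higher in adults and 10 (35.7%) in larvae, against 15.9% and 24.3% of the 333 such pairs of the whole domain. A read in the shallow larvae replicate 2 is required here, which leaves out pairs that are high in adults alone, so the balance of these calls is set in part by that choice. The strongest pair was F152-R186, 13.6 kb apart, with 384, 217, 149 and 21 counts and a change of 0.27 ± 0.40 (edgeR adjusted p = 0.557). F100-R182, 41.5 kb apart, held 100, 102, 111 and 19 counts and a change of -0.86 ± 0.44 (edgeR adjusted p = 0.0717). Neither of these most frequent pairs passed the test.

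R182 and R155 recurred among the pairs higher in larvae. F129-R182 held 11, 10, 75 and 10 counts, a change of -3.49 ± 0.67 (edgeR adjusted p = 1.11e-06). F199-R155 held 3, 7, 68 and 9 counts, a change of -4.34 ± 0.76 (edgeR adjusted p = 9.45e-08). With 1 library left out, the change ran from -3.98 to -2.70 for F129-R182 and from -5.25 to -3.34 for F199-R155. Both passed the filter only through larvae, where they were high, so their calls carry no support of their own. With R186, the neighbour of R182, F129 held 122 and 101 adult counts and no larvae counts.

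F159-R182 held 5, 1, 36 and 7 counts (-4.44 ± 0.89, edgeR adjusted p = 3.24e-06), and F124-R178 held 1, 1, 22 and 3 counts (-5.06 ± 0.82, edgeR adjusted p = 6.75e-09). F152-R191 held 65, 25, 82 and 13 counts (-1.72 ± 0.51, edgeR adjusted p = 0.00147), and F179-R155 held 56, 48, 84 and 10 counts (-1.33 ± 0.50, edgeR adjusted p = 0.0121). F179-R155 lost its call with DESeq2 (adjusted p = 0.157), without the filter (0.175), without the dominant pairs (0.0963), with a replicate block (0.0844) and among pairs at least 10 kb apart (0.0775), and F152-R191 without the filter (0.0529). F188-R155, F141-R189 and F104-R205 were likewise higher in larvae, with changes of -2.63, -2.88 and -2.68 and edgeR adjusted p-values from 0.000165 to 0.000753. In each pair of this paragraph the larvae level lay above the adult level in CPM. F159-R182 and F124-R178 also passed the filter only through larvae, so their calls carry no support of their own.

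The 2 pairs with reads in all 4 libraries that were higher in adults were F163-R178 and F199-R116. F163-R178, 5.53 kb apart, held 132, 63, 1 and 3 counts (3.63 ± 0.84, edgeR adjusted p = 6.37e-05). F199-R116, 39.7 kb apart, held 157, 77, 6 and 10 counts (1.80 ± 0.61, edgeR adjusted p = 0.00485). F163-R178 lost its call without larvae replicate 1, and F199-R116 without either adult library or larvae replicate 1, with edgeR adjusted p-values from 0.0691 to 0.353 over these fits. F199-R116 also lost its call with DESeq2 (adjusted p = 0.0704).

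Among the frequent pairs, F152-R176 held 84, 62, 32 and 6 counts (0.33 ± 0.58, edgeR adjusted p = 0.620) and F141-R186 held 96, 41, 6 and 12 counts (0.76 ± 0.68, edgeR adjusted p = 0.319). Neither passed the test. F152-R186 did pass among pairs at least 10 kb apart (0.75, edgeR adjusted p = 0.0345), and F100-R182 with library totals (-0.97, 0.0370) and at equal depth (-1.49, 0.0244). The larvae pairs counted next include F100-R176, F141-R198, F188-R87, F117-R178, F206-R75, F206-R55, F184-R103 and F196-R103, which had no adult read. Calls of these pairs carry no support of their own, whether kept or lost. The same holds for F129-R182, F199-R155, F159-R182 and F124-R178, which passed the filter only through larvae. Of the 17 named pairs higher in larvae, 7 lost their call without adult replicate 1 (edgeR adjusted p from 0.0515 to 0.503) and 8 without adult replicate 2 (0.0600 to 0.392). Without larvae replicate 1, the deeper of the larvae libraries, 11 were no longer tested and 4 more lost their call (0.150 to 0.670). Without larvae replicate 2 all 17 were kept.

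Both orientations of the ligation contributed. Pairs of a forward flank and a reverse block primer (377 pairs) held 8.53%, 8.07%, 5.82% and 3.00% of each library, and 19 of 26 tested flank primers were higher in adults and 4 in larvae. Pairs of a reverse flank and a forward block primer (448 pairs) held 3.71%, 3.37%, 3.02% and 2.14%, with 12 and 4 of 22 tested. The adult calls include F54, F56, F70 and F72 among forward and R134 and R136 among reverse primers, which had no larvae read. Calls of these primers carry no support of their own. The same holds for primers with few larvae reads that passed the filter only through adults, such as F135, F144 and F109. Over all 597 sums 33.3% were higher in adults and 22.9% in larvae. In both orientations the adult share lay above the larvae share.

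Other contacts of the same segments did not all run one way. Pairs within the block held 23.5%, 22.7%, 12.0% and 11.4% of each library, a ratio of stage means of 1.98, against 1.69 for flank to block pairs. Block primers with the short stretch between flank and block held 5.47%, 5.06%, 2.38% and 2.37%, a ratio of 2.21. Flank primers with that stretch held 3.45%, 3.03%, 2.05% and 1.74%, so adults lay above larvae in these classes too. Block primers with the high flank, on the far side of the domain, held 1.21%, 1.25%, 2.35% and 1.76%, and there larvae lay above adults. No test was made of these shares, so none of them is shown to differ from that of the flank to block pairs.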

How the data were processed

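Blood was profiled by 5C, with 2 libraries of adult zebrafish and 2 of larvae (18 days post fertilisation). The authors deposited 1 matrix of whole-number read counts per forward and reverse primer for each library, with no normalization, and primer positions on danRer7 are given per the file headers. Bowtie2 2.2.2 and bcl2fastq 1.8.4 are named in the submitters' processing notes. No source used here gives the rule that assigned reads to pairs.

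Primer pairs, sums of a primer toward each of 5 regions, and sums over pairs of 10 kb windows were each fitted over the whole domain by the quasi-likelihood test of edgeR 4.0.16 under R 4.3.3. The model had stage alone, with TMM factors and filterByExpr (minimum count 10, minimum total 15), and p-values were adjusted by Benjamini-Hochberg over all features fitted, with a threshold of 0.05. Each read enters the sum of 1 flank and of 1 block primer, so these sums are not independent. SEs were derived from the quasi-likelihood F, which pools the spread over features. The block primer F210 was thus called for adults (edgeR adjusted p = 0.0303) although its stages overlapped, at 1803, 2312, 96.1 and 1988 CPM. CPM is the count over the total count of the library, scaled to a common total. Bounds use a floor of 3 counts over the summed libraries of a stage. Their level and floor are scaled by the library sizes of the fit (counts of the features kept, times the TMM factor), not by the totals used for CPM. For 1 library, 3 counts are 0.00458%, 0.00779%, 0.0144% and 0.0459% of the total. Intervals (Clopper-Pearson) and floors reflect counting error alone: the PCR products carried no molecular identifiers, so reads are not separate molecules. Chi-square per degree of freedom over flank to block pairs was 2.56 for the adult and 2.98 for the larvae libraries, so none was taken for a copy. The models were also run on counts simulated around means pooled over the libraries, with set fold changes. No feature was set to be absent from 1 stage, so the simulation does not bear on pairs with reads in 1 stage alone.

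Named pairs and primers were the 10 pairs with the highest mean CPM; the 8 pairs in each direction with the smallest adjusted p; the 6 flank and 6 block primers in each direction with the smallest adjusted p; all window pairings; and up to 8 called pairs with reads in all 4 libraries. Other primers were named after their values were seen (F152, F156, R158, R113, F210 and the flank primers without larvae reads). The pairs described and the regions were chosen with earlier results of these data known, and the interaction test was added after the values were seen. Alternatives were library totals in place of TMM, DESeq2 1.42.0, no filter, the 3 dominant pairs left out, equal depth, windows of 5 kb, pairs at least 10 kb apart, a replicate block and each library left out. Gene order came from a RefSeq table of GRCz12tu, without coordinates.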

Additional observations from a re-analysis of the deposited data

How the results depend on the processing

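No called pair, flank primer, block primer or 10 kb window pairing was called for the opposite stage under any alternative run. Of 67 pairs higher in adults and 21 in larvae, no filter gave 182 and 44, equal depth gave 4 and 3, and leaving out 1 library gave 29 to 106 and 2 to 32. Of 31 and 8 flank primers, equal depth gave 9 and 2, and leaving out 1 library gave 15 to 32 and 1 to 9. Of 10 and 2 block primers, equal depth gave 8 and 1, and leaving out 1 library gave 6 to 11 and 0 to 3. Of 12 tested window pairings, 4 were higher in adults and 0 in larvae. No filter gave 7 and 1 of 12, omission of the dominant pairs 6 and 1 of 12, and windows of 5 kb 10 and 1 of 22. Leaving out 1 library moved these numbers too. Fewer reads or libraries enter the fits at equal depth and without a library; otherwise the cause was not tested. The stage difference in the share of counts was 4.85 points of the library, 3.00 to 6.69 with 1 library left out, and 11.0 points of the counts that leave the flank. The distance-matched difference of 0.73 (log2) stayed between 0.41 and 1.11. Replicate numbers did not pair the samples (correlation of same-numbered deviations 0.0159 over 679 pairs); with the number as a block, 66 and 19 pairs, 29 and 7 flank primers, 10 and 2 block primers and 6 and 0 window pairings were higher in adults and in larvae.

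Many named features were picked for a small adjusted p in these data. Some pairs among them had reads in 1 stage alone, and their calls were set by the filter. Counts of kept calls are thus no measure of stability. Of the values for named features under the alternatives, 559 kept direction and side of the threshold, 64 lost and 31 gained a call, and 12 changed sign, none past the threshold. At equal depth F152-R186 went to -0.23, F141-R186 to -0.058 and the lower part of the block with the window from 40 to 50 kb to 0.063. The upper part with the window from 50 to 60 kb went to -0.041 with DESeq2 and -0.048 without the dominant pairs. With 1 library left out, the log2 change ran from -0.19 to 1.00 for F152-R186 and from -0.36 to 2.26 for F141-R186. For the lower part it ran from -0.21 to 0.59 with the window nearest it and from -0.60 to 0.56 with that from 40 to 50 kb. For the window from 50 to 60 kb it ran from -0.51 to 0.60 with the upper part, and the interaction from -0.62 to 1.71. Library totals moved the median log2 change of all pairs from 1.08 to 0.97. The smallest library, of 6539 counts, sets what single pairs can show.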
